A study of Rattus norvegicus with 10 samples.

Results

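The genes for tau, 5 other microtubule-associated proteins (MAPs) and 4 components of tau kinases were followed in hippocampal RNA of transgenic rats fed the compound BT-11. These 10 genes, Mapt, Map1a, Map1b, Map2, Map4, Map6, Gsk3b, Cdk5, Cdk5r1 and Mark1, were matched by exact symbol among the 13686 symbols of the deposited count table. Each was listed on 1 line, and all 10 passed the filter on low counts. The BT-11 group was 5 male TgF-344AD rats given BT-11 in their chow from an age of 5 months, for 6 months. The untreated group was 5 male TgF-344AD rats on rodent chow without the drug. Rats of both groups carried the transgenes, were taken at 11 months under xylazine at 10 mg/kg with ketamine at 100 mg/kg and were perfused, and each library is the left hippocampus of 1 rat. This line is known to carry human transgenes with mutations of familial Alzheimer disease, APP among them, driven by the mouse prion protein promoter, so that tau in these animals is the rat's own. Non-transgenic rats are not analysed here. BT-11 is taken by mouth and is described as binding LANCL2, and the design asks how it alters hippocampal gene expression in the transgenic rats.

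Tau, encoded by Mapt, binds along microtubules in axons. Its relative MAP2 does so in dendrites and cell bodies, and MAP4, the third member of that family, is found in many cell types besides neurons. MAP1A and MAP1B form another family, in which MAP1B is prominent while axons grow and MAP1A in the mature brain. Phosphorylation by GSK3B, by CDK5 with its activator p35 (Cdk5r1) and by MARK kinases loosens tau from microtubules, and heavily phosphorylated tau builds the tangles of Alzheimer disease. These are steps of the protein, whereas the values here are RNA levels, summed over all splice forms of a gene.

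Libraries held between 9969413 and 11207817 estimated counts in BT-11 rats and between 8984439 and 11301545 in untreated rats. Levels are given as CPM, the count of a gene scaled to the total of its library. Markers of hippocampal excitatory neurons were present in every library: Prox1, a factor of dentate granule cells, was at 53.5 to 92.3 CPM in BT-11 rats and 21.6 to 82.1 CPM in untreated rats, and the glutamate transporter gene Slc17a7 at 879 to 1399 CPM and 1183 to 1403 CPM in the same groups. Summed over 10 choroid plexus markers, BT-11 libraries held 8.23 to 31 CPM, while untreated libraries held 9.62 to 3844 CPM, where untreated replicate 2 was the highest and untreated replicate 5, at 744 CPM, came next. Sostdc1 was the 1 marker of that list at 0, in 2 libraries. In this bulk tissue, fewer cells of a type and less RNA per cell cannot be told apart.

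No gene of the set passed the test between BT-11 and untreated rats. In edgeR's quasi-likelihood test the adjusted p of the 10 genes ran from 0.587 to 0.941. Across the hippocampus edgeR called 0 of 11771 genes at an adjusted p of 0.05 (0%), and 1070 genes (9.09%) had an unadjusted p under 0.05. None of the 10 was among those 1070. In every one of the 10 genes the BT-11 and untreated ranges overlapped, against 132 genes (1.12%) over the whole table whose groups did not overlap. DESeq2, run without edgeR's filter on low counts, called 40 of the 13682 genes that it gave a p-value (0.292%), none of them in the set. Without untreated replicate 3 edgeR called 62 of 11851 genes (0.523%), again none of the set. Tau was bounded narrowly, whereas untreated animals lay far apart in Map2, Cdk5r1, Gsk3b and Map1a.

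**Figure D1:**
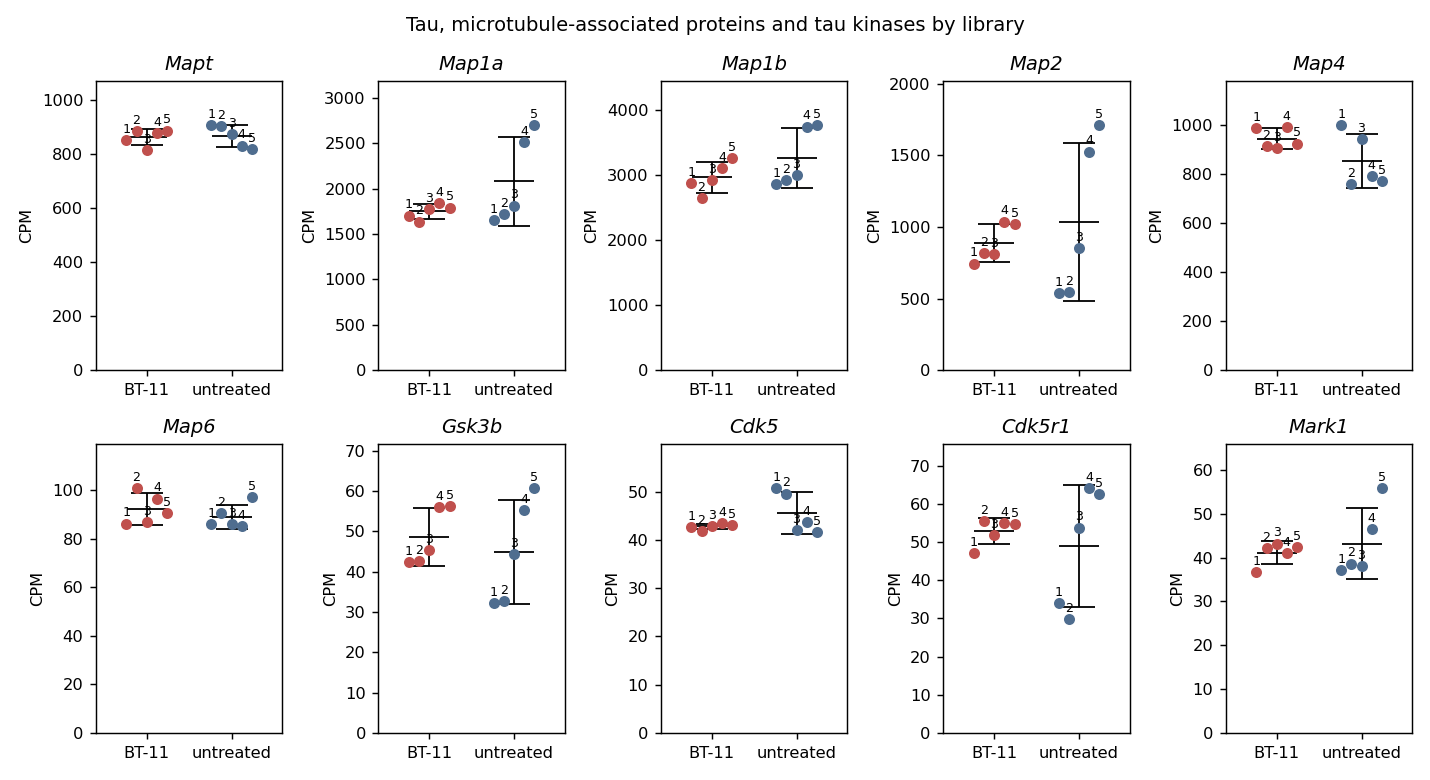
Level of each gene in CPM (vertical axes, starting at 0) in 5 BT-11 libraries (red, left) and 5 untreated libraries (blue, right), with numbers for the replicates and black bars for the mean ± SD. Map2 spans 744 to 1037 CPM in BT-11 libraries and 537 to 1711 CPM in untreated libraries, while Mapt lies between 814 and 907 CPM in all 10.

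Tau RNA was nearly the same in both groups. Mapt (plus strand of rn6 chromosome 10, from 92289002 to 92386516 in the deposited table) measured 852, 886, 814, 878 and 887 CPM in BT-11 replicates 1 to 5, against 907, 903, 874, 831 and 818 CPM in untreated replicates 1 to 5. Untreated replicates 1 and 2 were the highest of the 10 libraries and BT-11 replicate 3 the lowest. The log2 fold change, BT-11 over untreated, was -0.02 ± 0.0599 (SE), with a 95% interval from -0.15 to 0.11. On a linear scale that interval allows levels in BT-11 rats from 0.90 to 1.08 times those of untreated rats (adjusted p = 0.941 in edgeR). Without untreated replicate 1 the log2 fold change was 0.01.

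Map2, the dendritic MAP, varied more than any other gene of the set, and did so mainly among untreated rats. It is listed at 73378060 to 73459376 on the plus strand of chromosome 9. BT-11 replicates 1 to 5 held 744, 820, 812, 1037 and 1020 CPM, against 537, 545, 853, 1526 and 1711 CPM in untreated replicates 1 to 5. All 5 BT-11 libraries lay inside the untreated range, above untreated replicates 1 and 2 and below untreated replicates 4 and 5. The highest library was 1.39 times the lowest in BT-11 rats and 3.19 times in untreated rats. The log2 fold change was -0.23 ± 0.295 (SE), with a 95% interval from -0.87 to 0.41, and edgeR gave an adjusted p of 0.84. That fit compares mean counts, which the highest untreated libraries dominate. The difference between the group means of log2 CPM was -0.06. Without untreated replicate 5 the fitted log2 fold change was 0.03.

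Map4, the most widely expressed member of the tau family, was at 988, 914, 905, 991 and 925 CPM in BT-11 replicates 1 to 5, against 1000, 758, 942, 791 and 771 CPM in untreated replicates 1 to 5. It is listed at 118013612 to 118159935 on the plus strand of chromosome 8. Every BT-11 library lay above the 3 lowest untreated libraries and below untreated replicate 1. BT-11 over untreated, Map4 stood at a log2 fold change of 0.13 ± 0.0919 (SE), with a 95% interval from -0.07 to 0.33 (adjusted p = 0.684 in edgeR).

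The MAP1 pair followed each other from library to library. Of 8738 other genes with a mean of at least 10 CPM, Map1b came 12th in likeness to Map1a, measured as the root-mean-square distance between z-scored log2 CPM over the 10 libraries (0.36, against a median of 1.43 over all those genes). Map2 came 103rd at 0.52 and Mark1 127th at 0.53, so the likeness was not confined to the MAP1 pair. The stretches before the transcript starts of both MAP1 genes are shown because the pair varied alike. Whether the sequences bear on that was not tested. They are the 250 bases upstream of the RefSeq transcript start (build GRCr8), for Map1a chr3:128722445-128722694 on the plus strand and for Map1b chr2:32644472-32644721 on the minus strand. Capitals mark a match, on either strand, to the GC box GGGCGG, to the TATA box, read as TATAAA on the sense strand, or to the cAMP response element TGACGTCA.
Map1a: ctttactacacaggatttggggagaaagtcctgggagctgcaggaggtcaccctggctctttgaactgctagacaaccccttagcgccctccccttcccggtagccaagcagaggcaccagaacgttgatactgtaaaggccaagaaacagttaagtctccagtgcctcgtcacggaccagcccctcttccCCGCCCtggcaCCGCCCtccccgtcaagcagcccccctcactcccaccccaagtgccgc
Map1b: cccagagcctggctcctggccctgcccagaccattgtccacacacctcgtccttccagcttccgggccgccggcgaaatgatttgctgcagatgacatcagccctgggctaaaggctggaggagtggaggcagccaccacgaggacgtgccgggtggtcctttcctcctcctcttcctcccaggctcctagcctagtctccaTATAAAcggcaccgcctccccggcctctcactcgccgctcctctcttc
The Map1a window holds 2 GC boxes, and the Map1b window holds 1 TATA box and no GC box. Neither holds the cAMP response element. Over 33469 RefSeq promoter windows of the same length, 30.5% hold a GC box, 12.9% a TATA box and 1.6% the cAMP response element, with matches counted on both strands. The windows hold 9 and 13 CpG dinucleotides for Map1a and Map1b, against a median of 5. The Map1a start used in this table lies 5788 bases inside the annotated gene span. Windows were listed for 7 of the 10 genes.

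Map1a (plus strand of rn6 chromosome 3, from 113257688 to 113271630) measured 1704, 1639, 1774, 1845 and 1791 CPM in BT-11 replicates 1 to 5, against 1653, 1724, 1815, 2517 and 2701 CPM in untreated replicates 1 to 5. Untreated replicates 4 and 5 stood above all the others, and the remaining 8 libraries lay within 1639 to 1845 CPM. For Map1a the log2 fold change was -0.26 ± 0.13 (SE), with a 95% interval from -0.54 to 0.02, and it was -0.15 without untreated replicate 5. With all 10 libraries this was the smallest p of the set (unadjusted p = 0.0684, adjusted p = 0.587 in edgeR).

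Map1b (minus strand of chromosome 2, from 29675391 to 29768751) measured 2872, 2644, 2917, 3110 and 3262 CPM in BT-11 replicates 1 to 5, against 2860, 2922, 2996, 3743 and 3764 CPM in untreated replicates 1 to 5. The same untreated libraries, 4 and 5, were the highest. BT-11 replicate 2 was the lowest of the 10 for both MAP1 genes. The log2 fold change of Map1b was -0.15 ± 0.0973 (SE), with a 95% interval from -0.36 to 0.06 (adjusted p = 0.671 in edgeR).

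Map6, whose product protects microtubules from cold and from depolymerising drugs, was at 86.3, 101, 86.9, 96.6 and 90.5 CPM in BT-11 replicates 1 to 5, against 86, 90.7, 85.9, 85.3 and 97.1 CPM in untreated replicates 1 to 5. The groups overlapped over nearly their whole range. Its log2 fold change was 0.04 ± 0.0624 (SE), with a 95% interval from -0.10 to 0.17 (adjusted p = 0.876 in edgeR).

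Among the kinases, Gsk3b encodes glycogen synthase kinase 3 beta, which phosphorylates tau at many sites (minus strand of chromosome 11, from 65066199 to 65208838). It was at 42.4, 42.6, 45.3, 56.1 and 56.3 CPM in BT-11 replicates 1 to 5, against 32.2, 32.7, 44.4, 55.2 and 60.8 CPM in untreated replicates 1 to 5. In both groups replicates 4 and 5 were the highest, and untreated replicates 1 and 2 were the lowest of all 10. BT-11 over untreated, Gsk3b stood at 0.10 ± 0.172 (SE) on the log2 scale, with a 95% interval from -0.28 to 0.47 (adjusted p = 0.888 in edgeR). With 1 library left out it ran from 0.0015 without untreated replicate 2 to 0.23 without untreated replicate 5. With 295 to 687 counts per library, counting error alone gives an SD of 0.064 in BT-11 and 0.073 in untreated libraries on the log2 scale. The observed SDs were 0.206 and 0.417.

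Cdk5, the catalytic subunit (plus strand of chromosome 4, from 7282945 to 7287428), and Cdk5r1, the gene of its activator p35 (plus strand of chromosome 10, from 67862064 to 67863256), went opposite ways among untreated rats. Cdk5 was at 42.6, 41.9, 42.9, 43.5 and 43.1 CPM in BT-11 replicates 1 to 5, against 50.8, 49.6, 42.1, 43.7 and 41.6 CPM in untreated replicates 1 to 5. Cdk5r1 was at 47.2, 55.4, 51.9, 54.9 and 54.7 CPM in BT-11 replicates 1 to 5, against 34.1, 29.8, 53.8, 64.2 and 62.6 CPM in untreated replicates 1 to 5. Untreated replicates 1 and 2 were thus the highest libraries for the kinase and the lowest for its activator. The log2 fold change was -0.10 ± 0.0759 (SE) for Cdk5, with a 95% interval from -0.27 to 0.06 (adjusted p = 0.709 in edgeR). For Cdk5r1 it was 0.10 ± 0.184 (SE), with a 95% interval from -0.30 to 0.50 (adjusted p = 0.892 in edgeR), and it was -0.03 without untreated replicate 2.

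Mark1, a kinase that phosphorylates tau in its microtubule-binding repeats, was at 36.7, 42.1, 43.2, 41 and 42.4 CPM in BT-11 replicates 1 to 5, against 37.2, 38.6, 38, 46.4 and 55.9 CPM in untreated replicates 1 to 5. It is listed at 102809549 to 102942864 on the minus strand of chromosome 13. As for the MAP1 genes, untreated replicates 4 and 5 were the highest. Its log2 difference, BT-11 over untreated, was -0.09 ± 0.11 (SE), with a 95% interval from -0.33 to 0.15 (adjusted p = 0.838 in edgeR), and 0.02 without untreated replicate 5.

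**Figure D2:**
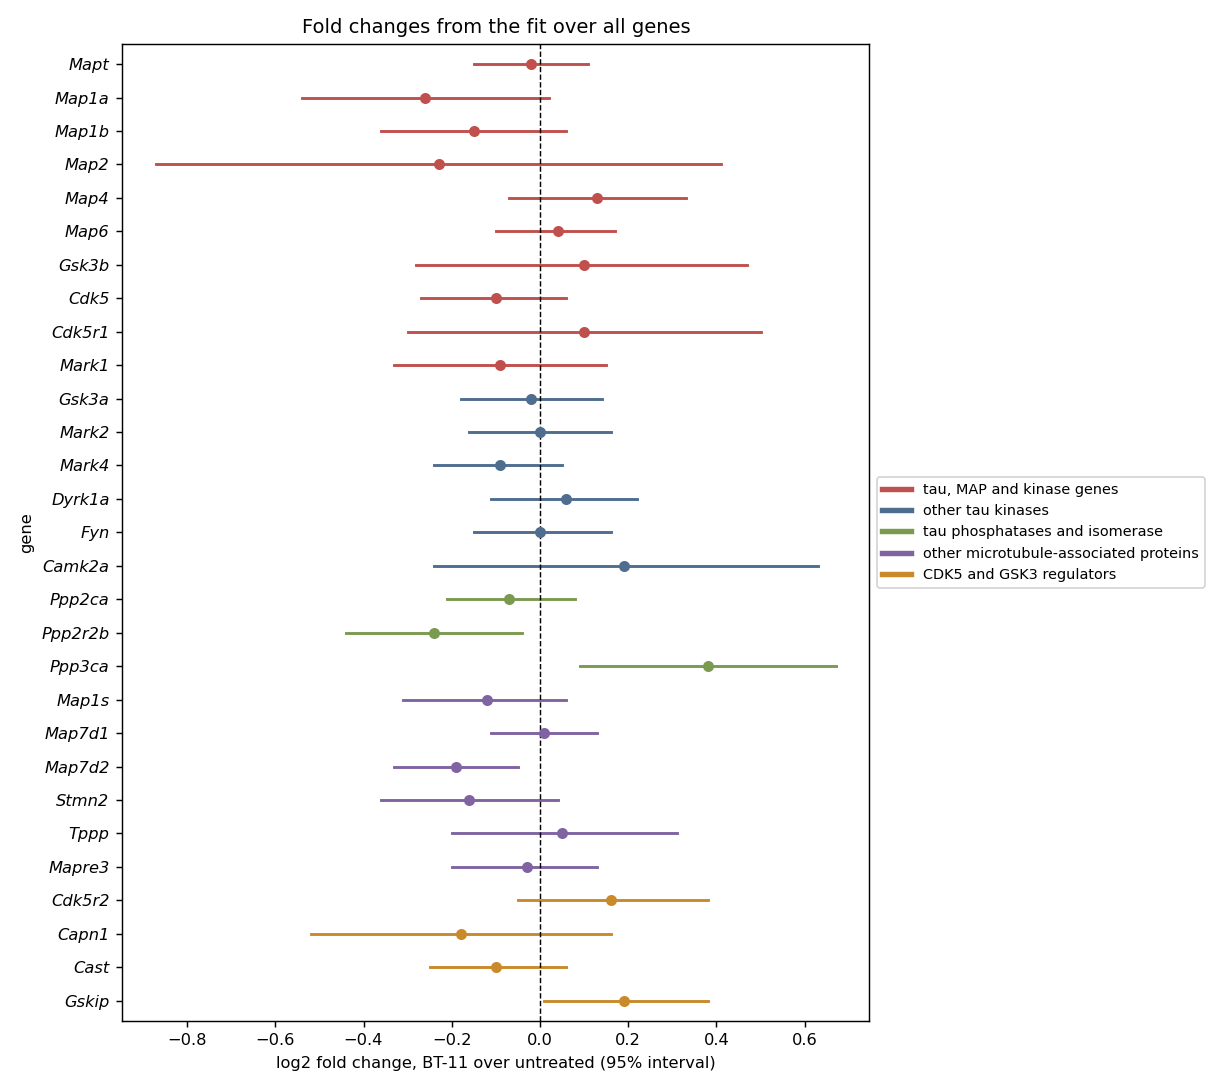
Log2 fold change, BT-11 over untreated (horizontal axis), with its 95% interval from the fit over all genes, for the 10 genes (red) and named genes of 4 related lists. The interval of Mapt runs from -0.15 to 0.11 and that of Map2 from -0.87 to 0.41.

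The untreated animals lay farther apart than the BT-11 animals in 9 of the 10 genes, Map6 being the exception. Untreated libraries had the larger SD of log2 CPM in 69.1% of 8739 genes with a mean of at least 10 CPM, so the direction itself is common in these data. The ratio of the untreated to the BT-11 SD had a median of 2.80 in the 10 genes and of 1.36 over all 8739. It was 5.30 for Cdk5r1, 4.95 for Map1a and 3.70 for Map2, above 98.8%, 98.6% and 95.9% of genes. Map2 had an SD of 0.214 in BT-11 and 0.793 in untreated libraries, and its untreated SD exceeded that of 99.4% of genes. Tau stood at the other end, with SDs of 0.052 in BT-11 and 0.068 in untreated libraries, the untreated value being above 7.5% of genes. For Cdk5 the ratio was 6.81, but the SD of 0.020 in BT-11 libraries is below the 0.068 that counting error alone gives, so that ratio has no bearing on the animals. The median of 2.80 includes Cdk5. The 8739 genes were not matched to the 10 in level, and counting error adds more to the SD of genes with few counts. The part of level in these percentages was not tested. No test of the spread was made.

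**Figure D3:**
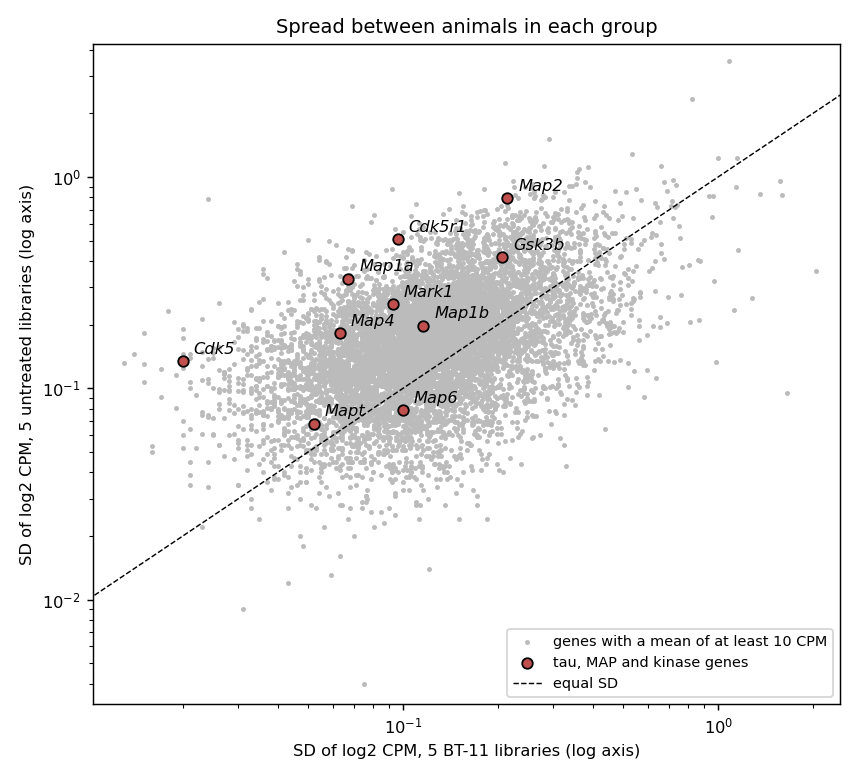
SD of log2 CPM over the 5 BT-11 libraries (horizontal log axis) against that over the 5 untreated libraries (vertical log axis), for 8739 genes (grey) and the 10 genes (red). Map2, Cdk5r1, Gsk3b and Map1a lie above the dashed line of equal SD, while Mapt lies near it and Map6 below it.

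Several of the genes shared an order of libraries, in whole or at 1 end. Untreated replicates 4 and 5 were the highest of all 10 libraries in 5 of the 10 genes (Map1a, Map1b, Map2, Cdk5r1 and Mark1), an order found in 10.40% of the 8739 genes. Untreated replicates 1 and 2 were the lowest in Map2, Gsk3b and Cdk5r1, as in 18.24% of genes. Both held for Map2 and Cdk5r1, as in 3.98% of genes.

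The level of long against short genes moved with that order, while marker sums did so only in part. The median deviation of the 25% of genes with the longest listed length (3363 bases or more) minus that of the 25% with the shortest (1497 bases or less) was -0.08, 0.00, 0.02, 0.11 and 0.12 in BT-11 replicates 1 to 5 and -0.29, -0.21, -0.02, 0.16 and 0.18 in untreated replicates 1 to 5, on the log2 scale. It was therefore lowest in the libraries with the least Map2 and highest in those with the most. Of the 10 genes, 6 are in that longest class, among them Mapt, while Cdk5 and Cdk5r1 are in the shortest. Summed over 18 of 18 pan-neuronal markers, BT-11 libraries held 11638 to 14265 CPM and untreated libraries 13710 to 17155 CPM, with none at 0. The 2 highest of these sums, 17155 and 16451 CPM, were those of untreated replicates 1 and 2, where Map2 was lowest. Untreated replicate 4, where Map2 was high, came next at 14968 CPM. Markers of hippocampal excitatory neurons did not share that order. Summed over 9 of 10 of them, BT-11 libraries held 2883 to 4201 CPM and untreated libraries 2577 to 3764 CPM, the lowest sum being that of untreated replicate 2, with 3172 CPM in untreated replicate 1. Summed over 7 of 8 thalamus markers, BT-11 libraries held 490 to 646 CPM and untreated libraries 518 to 737 CPM, and untreated replicates 4 and 5 were the highest of the 10, at 737 and 724 CPM. Untreated replicate 2, where Map2 was low, came next at 661 CPM. No gene of either list was at 0. Summed over 11 of 11 oligodendrocyte markers, BT-11 libraries held 8678 to 15602 CPM and untreated libraries 8287 to 16498 CPM, again with none at 0. Untreated replicates 4 and 5 had 8287 and 9296 CPM of them, and BT-11 replicate 3, with 8678 CPM, lay between these. With the length trend or a pan-neuronal score as a covariate, edgeR called 0 of 11771 genes at an adjusted p of 0.05, so none of the set. The smallest adjusted p over all genes was 0.271 with the length trend and 0.996 with the pan-neuronal score. The null for the set is thus that of the whole table. The fold changes of those fits are given with the other alternatives below. Beyond these fits, the part of gene length and of cell make-up in the levels of these genes was not tested.

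**Figure D4:**
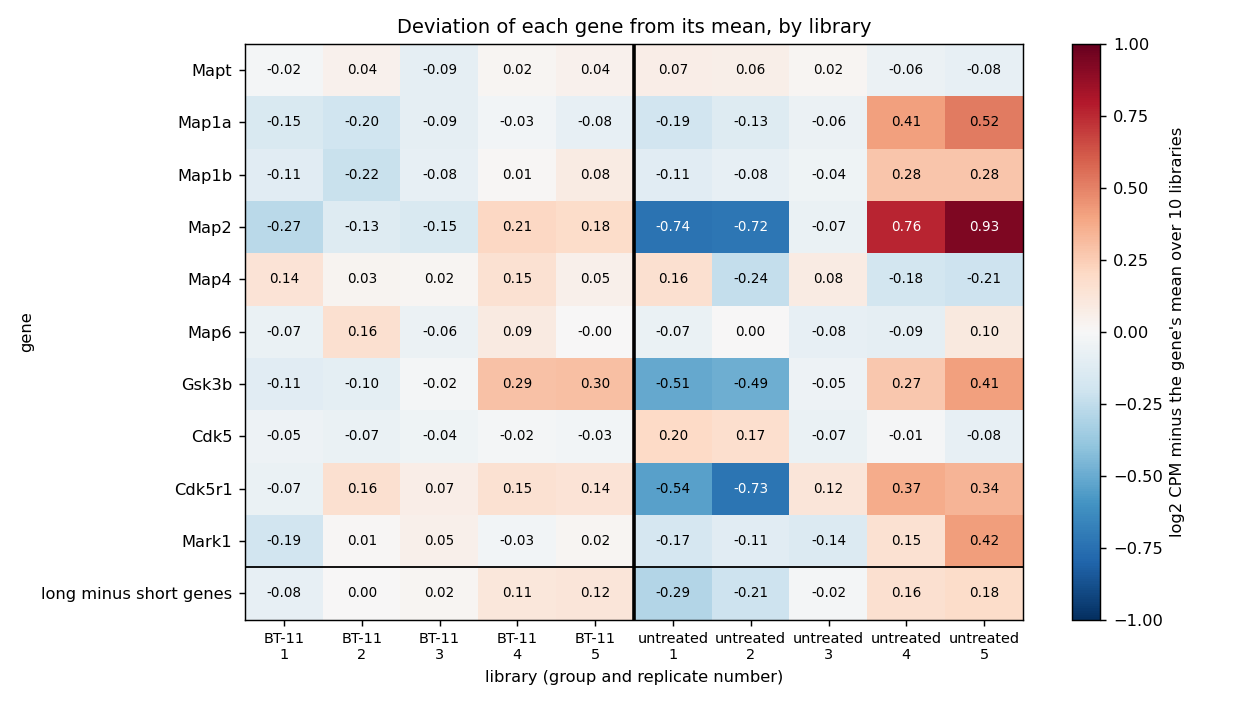
Deviation of each gene from its mean over the 10 libraries, in log2 CPM, by library (columns: 5 BT-11 on the left, 5 untreated on the right), with the long-minus-short gene difference in the bottom row. Map2 runs from -0.74 in untreated replicate 1 to 0.93 in untreated replicate 5, and from -0.27 to 0.21 in BT-11 libraries.

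The direction of several differences depended on which replicate numbers were compared. Numbers 4 and 5 had set themselves apart from 1 to 3 in earlier results of these data, and the labels name no batch. Within numbers 1 to 3, the log2 fold change of Map2 was 0.29, that of Cdk5r1 0.38 and that of Map1a -0.03, and edgeR called 0 of 11793 genes (0%). Within numbers 4 and 5, with 2 rats a group, it was -0.65 for Map2, -0.21 for Cdk5r1 and -0.52 for Map1a. There edgeR put 479 of 11919 genes past the threshold (4.02%), Map2 and Map1a being the 2 of the set. The split came from the expression values, and untreated replicates 4 and 5 are the highest libraries for both genes, so these calls are a description of 4 chosen libraries and no test of BT-11. Whether the sets of numbers differ beyond chance was not tested.

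**Figure D5:**
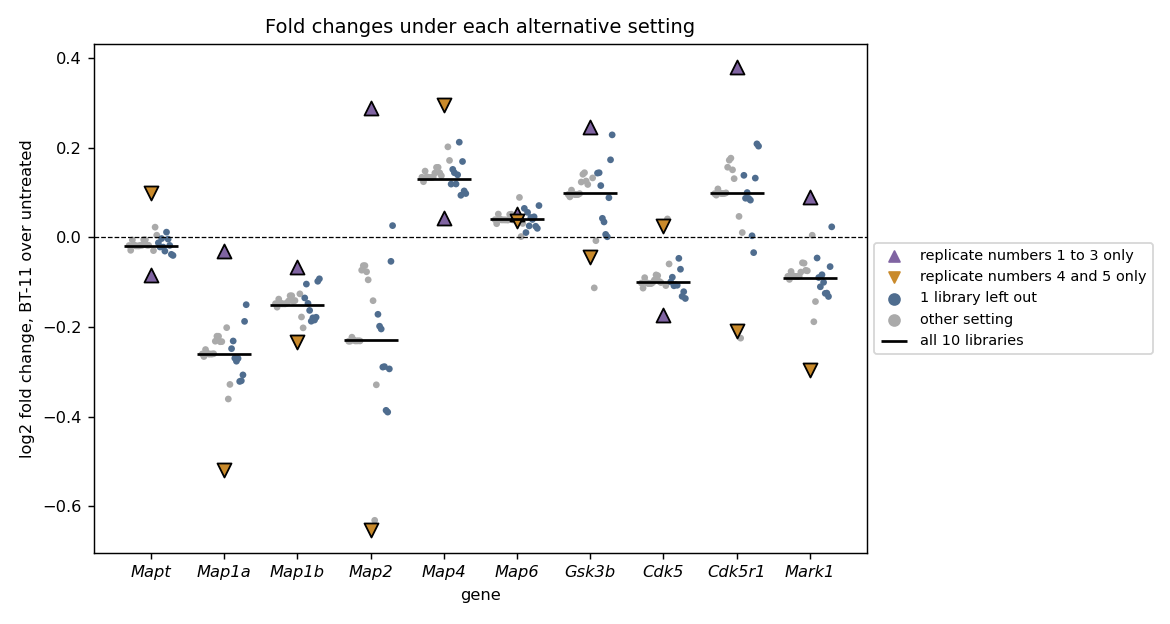
Log2 fold change, BT-11 over untreated (vertical axis), of each gene with all 10 libraries (black bar) and under each alternative setting. Upward triangles (numbers 1 to 3) and downward triangles (numbers 4 and 5) lie on opposite sides of 0 for Mapt, Map2, Gsk3b, Cdk5, Cdk5r1 and Mark1.

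Ratios between members within a library, which do not depend on library scaling, gave no difference past the test. The log2 ratio of Cdk5r1 to Cdk5, activator to kinase, was 0.15, 0.40, 0.27, 0.33 and 0.34 in BT-11 replicates 1 to 5, against -0.57, -0.73, 0.35, 0.55 and 0.59 in untreated replicates 1 to 5. Its mean was 0.30 ± 0.10 in BT-11 and 0.04 ± 0.64 in untreated rats (SD, n = 5 each), a difference of 0.26 (exact permutation test, two-sided, p = 0.437, adjusted over 3 ratios p = 0.655). All BT-11 ratios lay inside the untreated range. These ratios are not scaled to gene length, so their sign does not say which gene of a pair is the more abundant. The log2 ratio of Mapt to Map2, axonal to dendritic MAP, was 0.20, 0.11, 0.00, -0.24 and -0.20 in BT-11 replicates 1 to 5, against 0.76, 0.73, 0.03, -0.88 and -1.06 in untreated replicates 1 to 5. The group means were -0.03 ± 0.19 in BT-11 and -0.08 ± 0.86 in untreated rats (SD, n = 5 each, exact permutation p = 0.841, adjusted p = 0.841). Their difference of 0.06 turned to -0.14 without untreated replicate 4 and to -0.19 without untreated replicate 5. For Map1b to Map1a the means were 0.76 ± 0.07 in BT-11 and 0.67 ± 0.13 in untreated rats (SD, n = 5 each), a difference of 0.09 (exact permutation p = 0.262, adjusted p = 0.655). In that ratio untreated replicates 4 and 5 were the lowest of the 10 libraries, at 0.57 and 0.48. The smallest p this design allows is 0.00794.

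To set the levels of different genes side by side, values were taken as CPM per kilobase of the listed length. Ranges are those across libraries of a group, and they do not compare genes within a library. Map1b was the most abundant, at 250 ± 19.9 in BT-11 and 274 ± 38.4 CPM per kilobase in untreated rats (SD, n = 5 each), and its range overlapped that of Map1a in untreated but not in BT-11 rats. Map1a, Map4, Mapt and Map2 followed in BT-11 rats with means of 173, 172, 168 and 155, and the ranges of each neighbouring pair overlapped, so that no order among these 4 stood beyond the spread. In untreated rats the means of Map1a, Map2, Mapt and Map4 were 206, 181, 168 and 155, with overlapping neighbours throughout. A step without overlap separated these MAPs from the kinase genes in both groups: Cdk5r1 came next, at 44.3 ± 2.88 in BT-11 and 41 ± 13.5 CPM per kilobase in untreated rats. Cdk5 was at 36.8 in BT-11 and 39.2 in untreated rats, and Gsk3b at 31.8 and 29.5 CPM per kilobase in the same groups. Map6 was at 26.4 in BT-11 and 25.5 in untreated rats. Mark1 was the lowest, at 14 and 14.7 CPM per kilobase, with no overlap with Map6. The listed lengths, from 1163 bases for Cdk5 to 11866 bases for Map1b, may not cover all transcript ends.

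By the same z-score distance, the genes most like Mapt over the 10 libraries were Cst6 (0.30), Nop16 (0.31), Slc48a1 (0.34), Tmem151a (0.37) and Slc29a3 (0.38), against a median of 1.39 over 8738 genes. Within the set, Cdk5 was the nearest to Mapt, at 0.73, while Map2 and Cdk5r1 lay at 1.87 each. Untreated replicates 1 and 2, the highest libraries for Mapt, were the lowest for both Map2 and Cdk5r1. Most like Map1a were Slc7a11 (0.30), Shank2 (0.31), Tenm4 (0.31), Spock2 (0.32) and Ap2a2 (0.33). Shank2 encodes a scaffold of excitatory synapses, and Ap2a2 a subunit of the clathrin adaptor AP2. The z-score sets the size of a change aside: Tenm4 ran from 21.1 to 106 CPM, and Shank2 from 271 to 358 CPM.

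Genes of 4 related lists differed in either direction, none past the adjusted threshold of 0.05. Over these lists the log2 fold change ran from -0.50 for Cables1 to 0.40 for Sik1. Of 38 tested genes among other tau kinases, 19 were higher and 19 lower with BT-11, with a median log2 fold change of 0.00. Over all 11771 genes 5672 were higher and 6096 lower, with a median of -0.01. Unadjusted p under 0.05 was found for 4 of them (10.5%, against 9.09% over all genes), Mapk3, Camk2b, Brsk1 and Abl1. Gsk3a, the close relative of Gsk3b, was at 322 ± 14.4 CPM in BT-11 and 323 ± 26.9 CPM in untreated rats (SD, n = 5 each). Mark2 was at 75.6 ± 4.4 CPM and 75.1 ± 7.08 CPM in the same groups, and Mark4 at 127 ± 7.89 CPM and 134 ± 6.64 CPM. The tau kinase genes Dyrk1a and Fyn had log2 fold changes of 0.06 and 0.00. Camk2a, the main calcium/calmodulin kinase of excitatory synapses, spanned 998 to 1358 CPM in BT-11 and 577 to 1379 CPM in untreated rats.

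Among 26 genes of tau phosphatases and related enzymes, 8 were higher and 18 lower, with a median log2 fold change of -0.03, and 2 had an unadjusted p under 0.05 (7.69%), Ppp3ca and Ppp2r2b. Ppp3ca, the catalytic subunit of the calcium-activated phosphatase calcineurin, was at 1446 ± 131 CPM in BT-11 and 1100 ± 229 CPM in untreated rats, with a log2 fold change of 0.38 and a 95% interval from 0.09 to 0.67 (unadjusted p = 0.0133, adjusted p = 0.454 in edgeR). Ppp2r2b, a brain regulatory subunit of protein phosphatase 2A, was at 144 ± 14.2 CPM in BT-11 and 169 ± 17.8 CPM in untreated rats (log2 fold change -0.24, adjusted p = 0.475 in edgeR). The catalytic subunit Ppp2ca had a log2 fold change of -0.07, and its interval spans 0.

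Of 40 other microtubule-associated genes, 19 were higher and 21 lower, with 3 at an unadjusted p under 0.05 (7.5%), Map7, Map7d2 and Eml1. Map7d2, a microtubule protein that recruits kinesin, averaged 118 ± 2.83 CPM in BT-11 and 134 ± 10.4 CPM in untreated rats (SD, n = 5 each), with every BT-11 library below every untreated one. The gap was narrow, since the highest BT-11 library and the lowest untreated library both round to 122 CPM. Of the 19 example genes of these 4 lists it was the 1 whose groups did not overlap, as in 1.12% of all genes. Its log2 fold change was -0.19 ± 0.0644 (SE, adjusted p = 0.451 in edgeR). Map1s, the third MAP1 gene, had a log2 fold change of -0.12 and the stathmin gene Stmn2 had -0.16. Map7d1, Tppp and the end-binding protein gene Mapre3 had 0.01, 0.05 and -0.03.

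Of 17 genes listed as regulators or relatives of CDK5 or GSK3, 8 were higher and 9 lower. An unadjusted p under 0.05 was found for 3 (17.6%, against 9.09% over all genes), Cdk5rap2, Cables1 and Gskip. Cdk5r2, the gene of the second CDK5 activator p39, was at 123 ± 6.01 CPM in BT-11 and 109 ± 17.2 CPM in untreated rats (SD, n = 5 each), and like Cdk5r1 it ranged more widely in untreated rats, from 85.2 to 133 CPM. Gskip, which binds and inhibits GSK3B, had a log2 fold change of 0.19 with a 95% interval from 0.01 to 0.38 (adjusted p = 0.531 in edgeR). Capn1, a calpain that can cleave p35, and its inhibitor Cast had log2 fold changes of -0.18 and -0.10, with intervals that span 0.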

How the data were processed

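Left hippocampal RNA was prepared as strand-specific mRNA libraries (KAPA mRNA-Seq Hyper Prep) and sequenced as single-end 50-base reads, per the labels' protocols. STAR 2.7.9a, bcl2fastq 2.19.1.403, DESeq2, Partek and the build rn6 stand without roles in the submitters' processing notes. How reads were counted, with which annotation and strand setting, is not given in the sources used here, and antisense or overlapping genes may share reads. The authors deposited estimated counts per gene model (83.2% of values exactly whole, with no tolerance) and their own CPM, which are the counts divided by their column totals, with a small offset added.

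Estimated counts were summed per symbol, rounded, and tested in edgeR 4.0.16 (R 4.3.3) with the robust quasi-likelihood test, TMM scaling and the default filter by group, leaving 11771 genes and removing 1915. Two-sided p-values were Benjamini-Hochberg adjusted over all genes tested. Replicates did not repeat one another: the chi-square per degree of freedom within groups was 4.5 to 32.5. Ratios used counts plus 2 and an exact permutation test over 252 assignments (scipy 1.17.1). SDs of log2 CPM used a pseudocount of 0.5. On simulated counts of 11771 genes in 3 runs with 200 changed genes each, the edgeR step recovered 60.7% of the 1.5-fold changes and 85% of the 2-fold changes. Promoter sequences are from RefSeq (GRCr8). Reads carry no molecular identifiers, so intervals and counting errors do not cover amplification.

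Genes named are the 10 members, fixed examples of 4 lists (some examples are not reported here) and the 5 genes nearest to Mapt and to the member with the smallest p. Genes at an unadjusted p under 0.05 in the lists were named after their values were seen. The members, lists and alternatives were chosen with earlier results of these data known, and the length-trend covariate after the data were seen. DESeq2 1.42.0 and limma 3.58.1 served as alternatives, the second also on log2 of the authors' CPM plus 1 or plus 0.1.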

Additional observations from a re-analysis of the deposited data

Results flagged for a closer look

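Of 86 sets of 5 libraries examined (the 10 genes, 19 example genes of related lists, 3 ratios and the marker sums, in each group), 4 held a library that stood apart from the other 4 by Dixon's criterion. Chance gives about 1 in 20 by that criterion where sets are independent. These sets share libraries, so the number does not say whether the 4 arose by chance. None of the 4 was a tau, MAP or kinase gene. In BT-11 replicate 3 the oligodendrocyte markers summed to 8678 CPM, and the rest of the BT-11 group had 13740 to 15602 CPM. In BT-11 replicate 2 the striatal markers summed to 294 CPM, and the rest of that group had 154 to 178 CPM. In untreated replicate 2 the choroid plexus markers summed to 3844 CPM and the meningeal markers to 777 CPM, where the rest of the untreated group had 9.62 to 744 CPM and 268 to 355 CPM of them.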

How the results depend on the processing

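With all 10 libraries the count of the 10 genes past an adjusted p of 0.05 was 0 in edgeR, and it was 2 among replicate numbers 4 and 5 alone, libraries set apart by their expression values, and 0 under every other alternative run. Over all genes the count was 0, against 40 in DESeq2, 479 among numbers 4 and 5 alone, and 0 to 62 with 1 library left out, the 62 without untreated replicate 3. Map1a, Map1b, Map4 and Map6 kept their direction under all 28 alternatives, and with 1 library left out they ran from -0.32 to -0.15, -0.19 to -0.09, 0.09 to 0.21 and 0.01 to 0.07 in that order. Among numbers 4 and 5 alone the log2 fold change turned to 0.10 for Mapt, -0.04 for Gsk3b, 0.02 for Cdk5 and -0.21 for Cdk5r1. Among numbers 1 to 3 alone it turned to 0.29 for Map2 and 0.09 for Mark1. With the pan-neuronal score as a covariate it was 0.02 for Mapt, -0.11 for Gsk3b, 0.04 for Cdk5 and -0.22 for Cdk5r1. Map1a and Map2 were at -0.36 and -0.63 in that fit, with an adjusted p of 0.996 each in edgeR. With the length trend as a covariate, chosen after the data were seen, the log2 fold change was 0.0049 for Mapt and -0.0074 for Gsk3b. Map1a and Map2 were at -0.33 each in that fit, against -0.26 and -0.23 without the covariate. Their unadjusted p in edgeR was 0.000615 and 0.00117, and the adjusted p was 0.297 for each. The log2 fold change was -0.20 for Map1b, against -0.15, and 0.01 for Cdk5r1, against 0.10. Without untreated replicates 2 and 5 it was 0.0048 for Mark1. With each library left out in turn it ran from 0.0015 to 0.23 for Gsk3b, -0.14 to -0.05 for Cdk5, -0.04 to 0.01 for Mapt (turned without untreated replicate 1), -0.39 to 0.03 for Map2 and -0.13 to 0.02 for Mark1 (both turned without untreated replicate 5) and -0.03 to 0.21 for Cdk5r1 (turned without untreated replicate 2). The difference in the log2 ratio of Mapt to Map2 ran from -0.19 to 0.27 (turned without untreated replicate 4 or 5). The cause of these turns was not tested.

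The replicate numbers were not taken to pair the libraries, for which every same-numbered pair had to correlate above 0.1: deviations from the group means of same-numbered libraries correlated at 0.22, 0.16, 0.15, 0.17 and 0.04, the last below 0.1, and not every library correlated best with its own number. Libraries of unlike number correlated at -0.27 to 0.23. With the replicate block edgeR called 0 genes (1320 at an unadjusted p under 0.05, against 1070, with a smallest adjusted p of 0.15, against 0.402) and Map2 had a log2 fold change of -0.08. Map1a was at -0.23 in that fit (unadjusted p = 0.0454, adjusted p = 0.442 in edgeR).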
